A study of Mus musculus with 3 samples.

Results

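Cyclosporin A (CSA) at 5 mg/kg was compared with saline in CD4+ T cells taken from the spleen 7 days after allogeneic bone marrow transplantation. The comparison rests on 7027 of the 21204 cells sequenced: every cell that the deposited annotation of CD4+ T cells places in the saline or the 5 mg/kg group and does not mark as TEa. B6D2F1 recipients were grafted with 5000000 B6 bone marrow cells, 2000000 B6 T cells and 1000 TEa T cells, which carry a transgenic T cell receptor (TCR), and then received saline, CSA 5 mg/kg or CSA 50 mg/kg once a day from day 0 to day 6. On day 7, spleens from the 6 mice of a group were combined by 2 into 3 pools, which were marked with hashtag antibodies. Cells sorted as CD4+ and as CD8+ T cells were mixed and loaded together as 1 droplet capture per group, and treatment and capture cannot be told apart. The p-values thus measure the spread between pools of a capture. All 3 groups carried the same graft, and saline stands for untreated disease, not for a healthy spleen. The 50 mg/kg pools entered the fit to tell which genes were moved at the low dose beyond both other groups.

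CSA binds cyclophilins, and the complex blocks calcineurin, the calcium- and calmodulin-dependent phosphatase that frees NFAT transcription factors to enter the nucleus after TCR engagement. NFAT proteins act with partner factors at the genes of cytokines such as IL-2 and GM-CSF, of inhibitory receptors and of NFAT itself. In graft-versus-host disease, donor CD4+ T cells that meet host antigen expand in the spleen and become effector, follicular helper and memory-like cells, and CSA is given to hold that response back.

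Among the genes that were higher at 5 mg/kg than in both other groups were Il2 and Csf2, the genes of IL-2 and GM-CSF, and Ccl1, a chemokine gene of activated T cells. Their RefSeq promoters (mouse build GRCm38.p6, minus strand, from 250 bases before to 50 bases after the start of the gene, read 5′ to 3′) lie at chr3:37125905-37126204 for Il2, chr11:54249850-54250149 for Csf2 and chr11:82179763-82180062 for Ccl1. They are shown because NFAT proteins are known to bind around the letters GGAAA. Capitals mark GGAAA and, where it lies on the other strand, TTTCC.
Il2: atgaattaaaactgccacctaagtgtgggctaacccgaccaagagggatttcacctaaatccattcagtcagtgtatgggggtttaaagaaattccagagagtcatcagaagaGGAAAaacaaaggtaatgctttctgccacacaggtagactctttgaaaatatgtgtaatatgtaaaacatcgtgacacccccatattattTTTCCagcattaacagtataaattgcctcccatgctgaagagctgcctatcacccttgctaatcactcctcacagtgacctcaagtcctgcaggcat
Csf2: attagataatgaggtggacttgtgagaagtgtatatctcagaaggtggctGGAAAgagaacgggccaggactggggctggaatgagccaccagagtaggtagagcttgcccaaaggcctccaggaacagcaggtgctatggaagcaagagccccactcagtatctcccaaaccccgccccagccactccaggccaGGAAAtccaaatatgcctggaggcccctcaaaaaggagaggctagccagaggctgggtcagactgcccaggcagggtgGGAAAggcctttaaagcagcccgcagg
Ccl1: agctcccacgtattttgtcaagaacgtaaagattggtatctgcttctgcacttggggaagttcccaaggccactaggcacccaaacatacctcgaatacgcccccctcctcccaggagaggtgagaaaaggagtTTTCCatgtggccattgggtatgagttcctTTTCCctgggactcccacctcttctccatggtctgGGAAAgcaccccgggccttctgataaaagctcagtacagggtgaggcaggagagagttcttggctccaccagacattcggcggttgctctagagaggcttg
The Il2 promoter held these letters 2 times and those of Csf2 and Ccl1 3 times each. At least 1 match was present in 61.3% of 32851 promoters of the same length, at least 2 in 26.7% and at least 3 in 9.42%, so the letters are common, and a match describes the sequence and not a site in use.

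The saline group held 4058 cells and the 5 mg/kg group 2969, with 875 to 1479 cells and 3994968 to 6150393 unique molecular identifiers (UMIs, each standing for a captured RNA molecule) per pool. Another 3064 cells belonged to the 50 mg/kg group. Depth per cell differed between the groups: the median was 2966 to 3173.5 UMIs per cell in the saline pools, 4135 to 4630 at 5 mg/kg and 5794.5 to 6300 at 50 mg/kg. The T cell genes Cd3d and Cd3e stood at 789 CPM (UMI counts of a gene scaled to a common total) or more in all 9 pools, and median counts of the CD4 antibody were 323 to 345 per cell with saline and 471 to 534 at 5 mg/kg against 6 and 7 for the CD8 antibody. Of 11 T cell genes tested 9 rose and 1 fell. Cd4 RNA was lower at 5 mg/kg than with saline, with log2 changes of -0.36 to -0.29 when single pools were left out. Of the markers of other cells, 3 of 11 myeloid genes rose (summed level of 396 to 419 CPM in the saline group, 495 to 627 CPM at 5 mg/kg and 474 to 601 CPM at 50 mg/kg), as did 2 of 9 B and plasma cell genes (282 to 300 CPM in the saline pools and 348 to 491 CPM at 5 mg/kg). Of all genes tested, 26.1% rose. Of the 2 NK cell genes tested Eomes fell, and 5 erythroid genes had a median log2 change of 0.04. Cd8b1, the 1 CD8 T cell marker tested, fell by 0.32. It stood at 117 to 128 CPM in the saline pools, 93.3 to 102 CPM at 5 mg/kg and 23.4 to 29.0 CPM at 50 mg/kg. Of 12 immediate early genes that rise when tissue is dissociated, 6 rose and Fosb fell by 1.01 on the log2 scale. The part of these other cells and of handling in the results was not tested. Between any 2 captures, 13 to 18 cell barcodes were shared.

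At 5 mg/kg, 5467 of 10568 genes tested (51.7%) differed from saline at a Benjamini-Hochberg adjusted p of 0.05 in the quasi-likelihood test of edgeR. Of these, 2758 (26.1%) rose and 2709 (25.6%) fell. Counts of genes that rose or fell in a list are to be read beside these shares. The pools of both groups did not overlap for 6098 genes (57.7%). The changes were mostly small: the median size among genes that passed was 0.48 on the log2 scale, and only 204 of the genes that rose and 88 of those that fell changed by more than 1. Most genes in the lists of ribosomal proteins and of the respiratory chain rose, and most replication-dependent histone genes fell. Levels here are CPM scaled by edgeR's trimmed mean method (TMM), which sets the median log2 change near 0 (-0.01). With scaling by total UMIs alone it was -0.37, 926 genes were higher and 5718 lower, and 191 genes that rose with TMM fell. A rise smaller than that shift is therefore a rise relative to the typical gene and not as a share of all UMIs.

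The direction also followed transcript length. Genes were ordered by transcript length and split into 5 classes of about equal size. In the class of the shortest transcripts (median 627 bases) the median log2 change was 0.20, and it went down over the next classes from 0.14 and 0.12 to -0.10 and, for the longest (median 3354 bases), -0.33. In the shortest class 896 genes rose and 329 fell, and in the longest 105 rose and 998 fell. Ribosomal protein genes stood apart from genes of like length: the 84 cytosolic ribosomal protein genes had a median log2 change of 0.91, against 0.16 for 3203 other genes of the same length range. What ties length to the change was not tested.

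**Figure D1:**
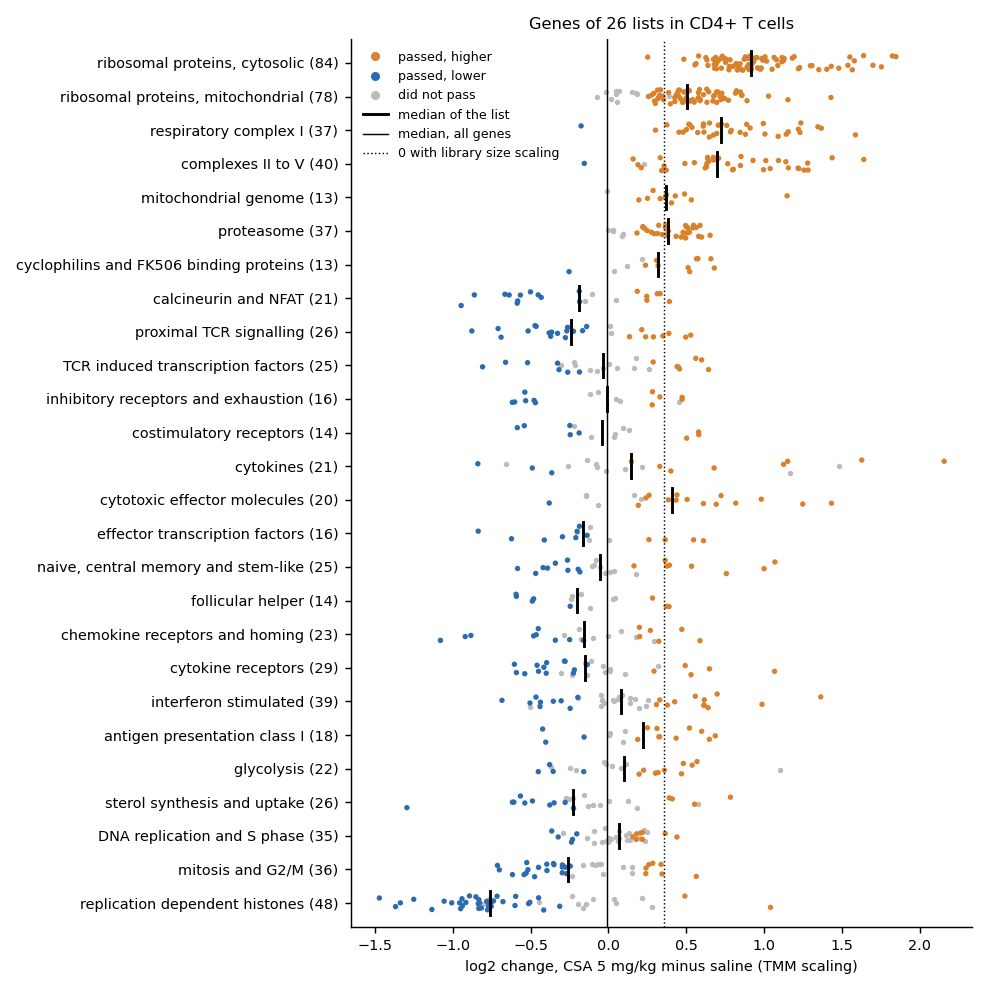
Log2 change at 5 mg/kg against saline (x axis, TMM scaling) of each gene tested in 26 gene lists (y axis, genes tested in parentheses), with 1 point per gene, orange for genes that passed and were higher, blue for genes that passed and were lower and grey for the rest. Thick bars are list medians, the solid line is the median of all genes (-0.01) and the dotted line is where a change would be 0 with library size scaling: cytosolic ribosomal proteins lie to the right of both lines (median 0.91, or 0.56 with library size scaling), while the proteasome (0.38, or 0.02) and mitochondrial genome (0.37, or 0.01) lists have their medians at the dotted line.

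Ribosomal protein genes were the most uniform group. All 84 cytosolic members tested rose with TMM, and 82 still rose with library size scaling (median log2 change 0.56). Their share of all UMIs was 15.6 ± 0.107% with saline (SD, n = 3 pools), 23.8 ± 0.210% at 5 mg/kg and 21.6 ± 0.604% at 50 mg/kg. Rpl38, a protein of the large subunit, had the largest rise among genes of at least 50 CPM, with 543, 580 and 548 CPM in the saline pools and 2024, 1936 and 2058 CPM at 5 mg/kg, a log2 difference of 1.85 (standard error of 0.04, with a Benjamini-Hochberg adjusted p of 1.43e-19 in the edgeR quasi-likelihood test). Rps28 and Rps29, of the small subunit, followed. Rps28 stood at 582, 595 and 565 CPM in the saline pools and 2018, 2087 and 2067 CPM at 5 mg/kg (log2 change 1.83, standard error 0.04). Rps29 went from 703, 705 and 690 CPM to 2346, 2344 and 2390 CPM (1.75, standard error 0.03). In each of these 3 genes the pools of a group lay within a few percent of each other and far from the other group. The other 7 largest rises of ribosomal genes, those of Rps21, Rpl39, Rpl37, Rps27, Rps27rt, Rpl36 and Rpl41, lay between 1.54 and 1.70. Many ribosomal protein genes have processed copies elsewhere in the genome, and Rps27 and Rps27rt are near-identical, so the split of reads between such copies is uncertain.

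Of these 84 genes, 22 were called higher at 5 mg/kg than in both other groups, Rps28 and Rps29 among those furthest from both groups. This call adjusts the larger p of both contrasts and does not count genes by the contrast with 50 mg/kg alone. At 50 mg/kg, Rps28 stood at 1209, 1267 and 1338 CPM and Rps29 at 1391, 1444 and 1473 CPM, between saline and the low dose. The list as a whole did not show this order, since its median log2 change against saline was 0.93 at 50 mg/kg and 0.91 at 5 mg/kg. Rps27rt, with 76.6 to 92.6 CPM at 50 mg/kg and 75.0 to 89.2 CPM at 5 mg/kg, overlapped between the doses.

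Genes of mitochondrial energy production rose with them. In respiratory complex I, the entry point of electrons, 36 of 37 nuclear genes rose (median 0.73), and in complexes II to V, which include ATP synthase, 38 of 40 did (median 0.70). Atp5k, a small subunit of ATP synthase, went from 53.0, 64.1 and 59.4 CPM to 181, 187 and 186 CPM, a log2 difference of 1.64 (standard error 0.06). Ndufa3, an accessory subunit of complex I, went from 128, 136 and 128 CPM to 390, 395 and 396 CPM (1.59, standard error 0.04). The exceptions were large catalytic subunits: Ndufs1, with 53.8, 55.2 and 54.3 CPM in the saline pools and 45.2, 51.7 and 47.6 CPM at 5 mg/kg, passed narrowly (-0.18, standard error 0.07) and lost its call with DESeq2, with the 6 pools alone and in 5 of 6 fits without a pool (-0.23 to -0.14, all but the fit without pool 2 of the low dose), and Sdha fell by 0.16. With library size scaling 33 complex I genes rose and 1 fell (median 0.37), and 31 genes of complexes II to V rose and 4 fell (0.34). Mitochondrial ribosomal proteins, which translate the mitochondrial genome, rose in 67 of 78 genes (median 0.51), led by Mrpl52 (1.43) and Mrps21 (1.15). Of these 78 genes, 37 rose and 7 fell with library size scaling (median 0.15). Of the 13 protein-coding genes of the mitochondrial genome, 12 rose by a median of 0.37, and 6 of them, mt-Nd2, mt-Nd3, mt-Nd4l, mt-Nd5, mt-Atp8 and mt-Cytb, were called higher at 5 mg/kg than in both other groups. Of these, mt-Nd2 overlapped with saline by 1 pool, and the calls of mt-Cytb, mt-Nd5 and mt-Nd2 held in 3, 4 and 5 of the 9 fits without a pool. With library size scaling the median of that list was 0.01, 3 rose and 2 fell, mt-Nd5 among the latter (-0.16), and only mt-Nd3 was still called above both groups. mt-Nd3 stood at 60.1, 72.7 and 66.9 CPM in the saline group, 157, 139 and 150 CPM at 5 mg/kg and 96.4, 94.5 and 96.3 CPM at 50 mg/kg, 3 levels with no overlap.

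The proteasome, which degrades tagged proteins, rose in 32 of 37 genes by a median of 0.38, which was 0.02 with library size scaling, where 15 rose and 7 fell. Psma7 rose from 232 to 262 CPM with saline to 369 to 398 CPM (0.65), and the immunoproteasome subunit Psmb10 by 0.60. Among genes of the cell cortex and nuclear lamina, 13 of 18 rose and 4 fell: Tmsb10, a small actin-binding protein, rose from 4933 to 5036 CPM to 12090 to 12769 CPM (log2 change 1.31, standard error 0.03) and Tmsb4x by 0.92, whereas Flna, the large actin cross-linker filamin A, fell from 369, 357 and 361 CPM to 266, 275 and 256 CPM (-0.45, standard error 0.04). Flna was also lower than at 50 mg/kg, where it stood at 329 to 343 CPM. The 3 hosts of small nucleolar RNAs tested all rose, Snhg6 by 1.10.

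Histone genes fell most. The replication-dependent histones, whose messages are made for newly copied DNA and mostly lack a poly(A) tail, fell in 34 of 48 genes and rose in 2 (median -0.76, or -1.12 with library size scaling). Hist1h1a, a linker histone, had the largest fall among genes of at least 50 CPM, from 189, 209 and 192 CPM to 85.7, 85.6 and 77.5 CPM (log2 change -1.25, standard error 0.06, Benjamini-Hochberg adjusted p of 3.03e-13, edgeR quasi-likelihood test). Hist1h1c, another linker histone, went from 229, 214 and 224 CPM to 94.8, 107 and 101 CPM (-1.14, standard error 0.06). At 50 mg/kg both were lower again, at 34.9 to 39.7 CPM and 76.4 to 91.6 CPM. The rarer Hist1h4b and Hist1h3b, of the nucleosome core, fell by 1.47 and 1.37. The 2 that rose were Hist1h2ap (1.04) and Hist1h2ae (0.49). Hist1h2ae was the only histone gene above both other groups, at 272, 279 and 265 CPM in the saline group, 420, 373 and 357 CPM at 5 mg/kg and 196 to 213 CPM at 50 mg/kg, but it turned in cells outside the cycling clusters (-0.17) and in cells of 3000 to 6000 UMIs (-0.05), as did Hist1h2ap (-0.13 and -0.10). The libraries were primed on poly(A), and histone genes of a family share much of their sequence, so single members are uncertain.

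The other large falls were of long genes. Huwe1, a ubiquitin ligase, went from 145, 144 and 142 CPM to 77.2, 73.0 and 73.4 CPM (log2 change -0.95, standard error 0.06), Trip12, another ubiquitin ligase, fell by 0.88, and Usp9x, which removes ubiquitin, by 0.90. Itga4, the alpha 4 integrin chain used for homing, went from 885, 831 and 888 CPM to 478, 476 and 423 CPM (-0.92, standard error 0.06). Within cluster C6, however, Itga4 rose (0.51), and in C2 (-0.26) and C4 (-0.07) it did not pass. Dync1h1, the heavy chain of the dynein motor, fell by 0.91, Arhgap26, a regulator of small GTPases, by 0.89, the transcription factor gene Elk4 by 0.91 and the imprinted noncoding RNA Kcnq1ot1 by 0.93. In none of these 8 genes did a saline pool overlap with a 5 mg/kg pool. The naming rule required this, so it adds no support. Every call of the 8 genes held in all 6 fits that left out a saline or 5 mg/kg pool.

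Of the NFAT genes, whose proteins lie in the pathway that CSA blocks, Nfatc2 and Nfatc1 fell. Nfatc2, which encodes the NFAT protein already present in resting T cells, went from 99.9, 105 and 100 CPM with saline to 60.4, 52.9 and 47.1 CPM at 5 mg/kg, a log2 difference of -0.95 (standard error of 0.07, with a Benjamini-Hochberg adjusted p of 9.60e-10 in the edgeR quasi-likelihood test). Nfatc1, whose short form is induced by NFAT, went from 306, 310 and 285 CPM to 210, 220 and 207 CPM (-0.50, standard error 0.05), and Nfat5, which answers to osmotic stress and not to calcineurin, fell by 0.86. At 50 mg/kg the 3 genes were lower still, at 42.2 to 46.0, 137 to 149 and 18.7 to 24.5 CPM. Across the list of calcineurin, calmodulin, calcium entry and NFAT genes 12 of 21 fell and 6 rose (median -0.19, or -0.55 with library size scaling). Ppp3ca, the main catalytic subunit of calcineurin, did not pass (57.3, 60.6 and 56.2 CPM against 65.8, 56.8 and 65.3 CPM with saline), nor did Rcan1, a feedback inhibitor of calcineurin that NFAT induces, which had few UMIs (3.26 to 8.80 CPM in the saline pools and 4.92 to 7.68 CPM at 5 mg/kg). Calm2, a calmodulin gene, rose relative to the typical gene by 0.39, which became 0.03 with library size scaling.

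In a joint list of cyclophilins, the proteins that CSA binds, and FK506 binding proteins, which it does not, 9 of 13 genes rose and 1 fell (median 0.32). It was 6 and 3 with library size scaling (median -0.04). Ppia, cyclophilin A, the main receptor of CSA in the cell, went from 2838, 2816 and 2792 CPM to 4029, 4201 and 4271 CPM (log2 change 0.57, standard error 0.03), and Fkbp1a, the receptor of the related drug FK506, from 344 to 375 CPM to 562 to 585 CPM (0.68). Ppih, a cyclophilin of the spliceosome, rose by 0.66, a call lost in cells of 3000 to 6000 UMIs (0.30). Fkbp5, a co-chaperone of steroid receptors, fell by 0.25, a call lost outside C0, C4 and C6 (-0.02) and outside the cycling clusters (-0.16).

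Proximal TCR signalling genes moved in both directions. In the list, 16 of 26 fell and 8 rose (median -0.24, or -0.60 with library size scaling). Malt1, a protease of the complex that links the TCR to NF-kB, went from 129, 145 and 139 CPM to 84.4, 66.2 and 75.3 CPM (log2 change -0.88, standard error 0.08), and Themis, a signalling regulator, from 203, 212 and 212 CPM to 124, 131 and 128 CPM (-0.71, standard error 0.05). Bcl10, the partner of Malt1, rose by 0.50 and the adaptor Lat by 0.53. Zap70, the kinase at the receptor, was higher than in both other groups with 313, 300 and 291 CPM in the saline group, 359, 357 and 385 CPM at 5 mg/kg and 302 to 307 CPM at 50 mg/kg, although with library size scaling it was -0.07 against saline. Zap70, like Batf, Nfkbia, Socs1, Foxp1 and Gm42418 below, was picked after its values were seen.

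TCR-induced transcription factors showed no common direction, with 6 of 25 genes higher and 7 lower (median -0.03, or -0.39 with library size scaling). Irf4, whose level follows TCR signal strength, fell from 35.8, 37.2 and 27.0 CPM to 19.1, 19.0 and 18.8 CPM (log2 change -0.81, standard error 0.13), and stood at 19.8 to 25.7 CPM at 50 mg/kg. Nr4a1, an early reporter of TCR signalling, rose from 33.3, 34.9 and 34.0 CPM to 46.7, 57.4 and 55.0 CPM (0.64, standard error 0.09) and stood at 93.5 to 106 CPM at 50 mg/kg. Its call was lost in cells outside C0, C4 and C6 (0.31) and in cells of 3000 to 6000 UMIs (0.17). Egr2, an NFAT target, did not pass (24.4 to 25.7 CPM and 25.8 to 32.5 CPM).

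Against both other groups, 150 genes (1.42% of those tested) were higher and 51 (0.483%) lower at 5 mg/kg. A gene counted only if both the contrast with saline and that with 50 mg/kg passed, with the larger of both p-values adjusted over all genes. Of the 150, 147 had 5 mg/kg pools above every pool of both other groups. Their median log2 difference was 0.66 from saline and 0.45 from 50 mg/kg, and only 11 were over 2-fold from both. The 22 ribosomal protein genes were the largest block, and 78 genes belonged to no list. The count rested on pool 3 of the 5 mg/kg group more than on others: it was 92 without that pool, 118 without pool 2 and 122 to 158 without any of the other 7, and 84 of the 150 genes were called in all 9 of these fits. Of the 150, 72 were also called with library size scaling, 111 with DESeq2 and 89 in cells of 3000 to 6000 UMIs.

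Among genes with a mean of at least 20 CPM over the 9 pools, those furthest above both groups included Ccl1, Csf2 and 3 genes of interferon-induced membrane proteins. Il2 lay below that level and is given as an anchor gene. Ccl1 stood at 184, 157 and 123 CPM in the saline group, 358, 328 and 479 CPM at 5 mg/kg and 2.76, 11 and 0.149 CPM at 50 mg/kg. The low dose pools were all above saline, and the 50 mg/kg pools held 1 to 66 UMIs of the gene against 807 to 1059 with saline and 1386 to 2729 at 5 mg/kg. The log2 change against saline was 1.35 (standard error of 0.17, with a Benjamini-Hochberg adjusted p of 9.46e-07 in the edgeR quasi-likelihood test), a call that was lost with DESeq2 (1.33, adjusted p of 0.30) and in cells of 3000 to 6000 UMIs (0.58).

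Csf2 stood at 42.7, 15.7 and 35.9 CPM in the saline group, 59.9, 47.0 and 92.4 CPM at 5 mg/kg and 9.26 to 14.8 CPM at 50 mg/kg (log2 change 1.15 against saline, standard error 0.24). Il2, the growth factor gene that calcineurin inhibitors are best known for suppressing, was a rare message, with 30 to 34 UMIs per saline pool, 46, 45 and 146 at 5 mg/kg and 9, 9 and 46 at 50 mg/kg. This gave 6.28, 4.75 and 5.19 CPM in the saline pools and 11.9, 10.2 and 25.6 CPM at 5 mg/kg, a log2 difference of 1.63 (standard error of 0.36, with a Benjamini-Hochberg adjusted p of 7.06e-04 in the edgeR quasi-likelihood test). In both genes pool 3 of the low dose was the highest. No low dose pool overlapped with a saline pool, which the naming rule required of Csf2. The larger p of both contrasts after Benjamini-Hochberg adjustment (edgeR quasi-likelihood test) was 1.42e-02 for Il2 and 7.72e-03 for Csf2, and these calls held in 6 and 8 of the 9 fits without a pool. Without that pool the rise of Il2 was 1.04 and that of Csf2 0.80, and both still passed. The difference of both genes from both other groups was not called with DESeq2, with library size scaling or in cells of 3000 to 6000 UMIs, and the call of Csf2 against saline was lost outside C0, C4 and C6 (0.58). The promoters of the 3 genes are those printed at the start.

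Ifitm1, Ifitm2 and Ifitm3, neighbouring genes of membrane proteins that hinder virus entry, formed a second group. Ifitm1 stood at 355, 279 and 271 CPM in the saline group, 806, 602 and 805 CPM at 5 mg/kg and 26.2, 39.6 and 62.9 CPM at 50 mg/kg. Ifitm3 stood at 148, 143 and 159 CPM, then 346, 318 and 422 CPM, then 24.3, 19.5 and 25.7 CPM. Ifitm2 followed the same order (118, 98.8 and 112 CPM, then 272, 234 and 280 CPM, then 19.5, 35 and 47.9 CPM). All 3 were above saline at the low dose, by 1.26 to 1.30 on the log2 scale, and far below saline at the high dose. These paralogs are alike in sequence, which makes the split between them uncertain. The rise was not present in every cluster: Ifitm1 rose within C5 (1.69), C7 (0.99), C8 (0.80) and C1 (0.67), and fell within C10 (-1.61) and C2 (-0.65).

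S100a8, a calcium-binding protein best known from neutrophils, was higher at the low dose, with 25.6, 38.3 and 38.0 CPM in the saline group, 98.9, 80.0 and 56.4 CPM at 5 mg/kg and 29.7 to 46.1 CPM at 50 mg/kg (log2 change 1.15 against saline, standard error 0.17). S100a9, its partner, stood at 28.7, 41.5 and 41.4 CPM, then 97.8, 71.6 and 52.0 CPM, then 34.5 to 55.6 CPM (0.93), with an overlap between the doses, and its call above both groups held in 4 of the 9 fits without a pool and was lost with DESeq2 and with library size scaling. They are 2 of the 3 myeloid genes that rose, and whether their RNA came from CD4+ T cells was not tested. Wfdc17, a secreted protein of myeloid cells and T cells, varied among the low dose pools (27.4, 62.8 and 34.8 CPM against 16.6 to 25.2 CPM with saline), and its call was lost outside C0, C4 and C6 (0.21). Plac8 stood at 128, 134 and 139 CPM in the saline group, 221, 220 and 221 CPM at 5 mg/kg and 58.6 to 77.6 CPM at 50 mg/kg (0.72, standard error 0.07). The pools of Plac8 agreed closely, but within clusters it rose in 4 of 11 and fell in 2.

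**Figure D2:**
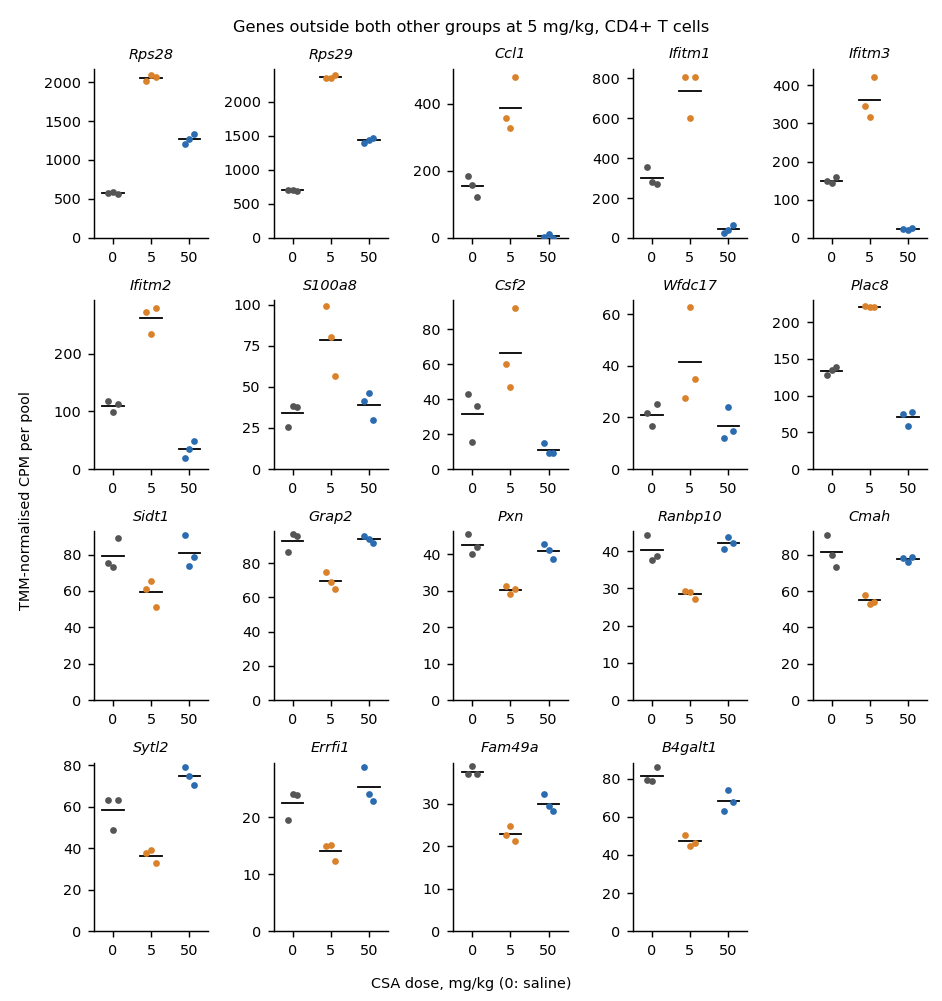
Levels per pool (y axis, TMM-normalised CPM from 0, x axis, CSA dose in mg/kg with 0 for saline) of 10 genes that were higher and 9 that were lower at 5 mg/kg than in both other groups, with 1 point per pool and a bar at the mean of 3 pools. The 3 orange points lie outside the grey and blue points in every panel because genes were picked for this. In Ccl1 they stand at 328 to 479 CPM against 123 to 184 and 0.149 to 11 CPM.

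Among receptors, ligands and signalling genes above both groups were Cd40lg, the T cell signal to B cells and dendritic cells (116, 117 and 114 CPM, 161, 174 and 181 CPM, and 108 to 124 CPM, log2 change 0.58 against saline) and Tnfrsf4, the costimulatory receptor OX40 (208 to 210 CPM, 254, 299 and 377 CPM, and 140 to 148 CPM, 0.58). Both still passed against saline with library size scaling (0.22 each), but the call of Tnfrsf4 above both groups was lost. Batf, a transcription factor of effector T cells, stood at 224 to 245 CPM, 331 to 366 CPM and 138 to 149 CPM (0.56), and Cd69, an early activation marker, at 133 to 144 CPM, 176 to 203 CPM and 112 to 138 CPM (0.46). Feedback inhibitors of cytokine signalling lay above both groups as well: Cish rose by 0.65 (37.5 to 54.3 CPM, 68.2 to 74.1 CPM, and 43.6 to 51.4 CPM), Socs3 by 0.53 and Socs1 by 0.49. Cd69 (0.10) and Socs3 (0.17) no longer passed against saline with library size scaling, and the calls of Cish and Socs1 above both groups were lost. Nfkbia, the inhibitor of NF-kB, rose by 0.29, and Nfkbid, a related protein, by 0.60, both above 50 mg/kg too. With library size scaling Nfkbia was -0.07 and did not pass, and the call of Nfkbid above both groups was lost. That call held in 6 of the 9 fits without a pool, and against saline Nfkbid did not pass in cells of 3000 to 6000 UMIs (0.21) or outside C0, C4 and C6 (0.14). Of the genes in no list, Gm42418 was the most abundant (5808 to 5922 CPM, 7340 to 7566 CPM, and 6234 to 6899 CPM). It overlaps a ribosomal RNA repeat, and its change was -0.01 with library size scaling.

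The 51 genes below both groups had smaller differences, with a median log2 difference of -0.43 from saline and -0.39 from 50 mg/kg, and 2, Serpine2 and Wdr95, which were picked after their values were seen, were over 2-fold from both. For 50 of them the low dose pools lay below every other pool. Called genes numbered 26 without pool 3 of the low dose, 31 without pool 2 and 36 to 60 without any of the other 7, and 19 genes were called in all 9 fits. Their transcripts were longer (median 1823.5 bases) than those of the 150 genes above both (711.5 bases) and of all genes (1299.5 bases). B4galt1, a galactosyltransferase of the Golgi, stood at 79.2, 78.9 and 86.4 CPM in the saline group, 50.3, 44.7 and 46.2 CPM at 5 mg/kg and 63.0 to 73.9 CPM at 50 mg/kg (log2 change -0.80 against saline, standard error 0.08). Sytl2, which docks secretory vesicles, stood at 63.0, 48.5 and 63.0 CPM, 37.4, 38.9 and 32.7 CPM, and 70.3 to 78.9 CPM (-0.68). Both genes were lowest at the low dose, without overlap as the naming rule required, Sytl2 with its highest level at 50 mg/kg.

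Among the others furthest below both groups were Errfi1, a feedback inhibitor of EGF receptors (-0.70), Fam49a, which binds the GTPase Rac (-0.72), Cmah, an enzyme of sialic acid synthesis (-0.56), Ranbp10 (-0.49), Pxn, the adhesion protein paxillin (-0.48), Grap2, an adaptor that links Lat to SLP-76 (-0.44), and Sidt1 (-0.43). In cells of 3000 to 6000 UMIs the fall against saline did not pass for Fam49a, Cmah, Ranbp10, Grap2 and Sidt1. Eomes, a transcription factor of cytotoxic and memory T cells, was low throughout, with 9.43, 12.3 and 7.63 CPM in the saline group, 3.87, 6.78 and 5.62 CPM at 5 mg/kg and 31.4 to 34.8 CPM at 50 mg/kg. Dusp4, a phosphatase that limits MAP kinases, showed the same order (13.3 to 19.1 CPM, 9.84 to 10.3 CPM, and 21.8 to 29.8 CPM), and so did Foxp1, a factor of T cell quiescence (91.9 to 106 CPM, 80.6 to 86.3 CPM, and 123 to 130 CPM). Their calls below both groups held in 4, 3 and 4 of the 9 fits without a pool and were lost with DESeq2. Against saline, Eomes did not pass in cells of 3000 to 6000 UMIs (-0.72) or outside C0, C4 and C6 (-0.56), and Foxp1 did not pass in cells of 3000 to 6000 UMIs (-0.08).

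Of 16 genes in the list of inhibitory receptors 5 rose and 6 fell, against 26.1% and 25.6% of all genes tested (median -0.01, or -0.37 with library size scaling). Tox, a transcription factor of chronically stimulated T cells, fell from 154, 154 and 131 CPM to 92.9, 95.6 and 99.4 CPM (log2 change -0.60, standard error 0.07) and stood at 12.2 to 14.9 CPM at 50 mg/kg. Pdcd1, the gene of PD-1, overlapped between saline and 5 mg/kg (259, 218 and 194 CPM against 236, 224 and 241 CPM) and stood at 15.3 to 30.9 CPM at 50 mg/kg. Lilrb4a fell by 0.62. Tigit, which competes with CD226 for its ligands, lay above both groups with 257, 245 and 246 CPM, 381, 330 and 329 CPM, and 56.6 to 72.2 CPM (0.47, standard error 0.06), as did Lag3, a receptor for MHC class II (116, 112 and 95.9 CPM, 156, 139 and 152 CPM, and 28.4 to 48.7 CPM, 0.47, standard error 0.10). With library size scaling both were 0.11 against saline and did not pass, and Lag3 was also lost with DESeq2. Cd226, the activating partner of Tigit, fell from 129, 119 and 133 CPM to 75.4, 93.1 and 84.7 CPM (-0.59, standard error 0.07). Of 14 costimulatory genes 3 rose and 5 fell, Tnfrsf1b by 0.54.

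Follicular helper genes moved in both directions. Bcl6, the defining factor of these cells, went from 18.4, 24.0 and 20.6 CPM to 14.7, 14.7 and 13 CPM (log2 change -0.59), their homing receptor gene Cxcr5 from 45.5, 55.5 and 41.4 CPM to 36.4, 33.7 and 32.7 CPM (-0.48) and the cytokine gene Il21 from 45.0, 55.2 and 49.6 CPM to 35.4, 35.7 and 36.2 CPM (-0.49). In each, every low dose pool was below every saline pool, and at 50 mg/kg they stood at 3.28 to 4.13, 1.5 to 2.84 and 1.34 to 4.18 CPM. Il6st, a shared cytokine receptor chain, fell by 0.59. Of 14 genes in the list 5 fell and 3 rose, against 25.6% and 26.1% of all genes tested. Among those that rose were Maf (0.39) and Sh2d1a (0.37), which lay above both other groups and became 0.03 and 0.01 with library size scaling. The calls of Bcl6, Cxcr5 and Il6st were lost in cells of 3000 to 6000 UMIs, that of Cxcr5 also outside C0, C4 and C6, and that of Il21 outside the cycling clusters.

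Of 21 cytokine genes 8 rose and 3 fell. Beside Il2 and Csf2, Il17a had the largest log2 change (2.16, standard error 0.72), but from 10, 1 and 0 UMIs in the saline pools to 3, 16 and 21 at 5 mg/kg, which overlap, and its call was lost without pool 2 or 3 of either group (1.51 to 1.95). Tnfsf10, the death ligand TRAIL, fell from 36.7, 49.8 and 45.9 CPM to 27.4, 21.0 and 26.3 CPM (-0.84, standard error 0.12). Of 6 chemokine genes Ccl1 alone passed. Regulatory T cell genes (3 of 8 rose and 2 fell) and Th17 genes (2 of 8 rose and 2 fell) had no common direction. Ifng, interferon gamma, did not pass and overlapped (123, 54.9 and 72.2 CPM against 74.9, 62.6 and 66.4 CPM).

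Cytotoxic effector genes rose in 14 of 20 and fell in 1 (median 0.41, or 0.05 with library size scaling, where 8 rose and 5 fell). S100a6, a small calcium-binding protein, rose from 1677, 1534 and 1594 CPM to 3731, 3778 and 3905 CPM (log2 change 1.25, standard error 0.03). Gzmb, granzyme B, went from 590, 528 and 574 CPM to 621, 686 and 716 CPM (0.26, standard error 0.07), against 1110 to 1407 CPM at 50 mg/kg, and was -0.10 with library size scaling. Gzmc rose by 1.43 with a wide spread (9.84, 17.2 and 26.1 CPM, then 50.6, 23 and 71.5 CPM), Gzma did not pass, and Gzmk fell by 0.38, a call lost without low dose pool 1 (-0.34), saline pool 2 (-0.29) or saline pool 3 (-0.32). In cells of 3000 to 6000 UMIs Gzmb was -0.04 and Gzmc -0.10. Of 16 effector transcription factors 4 rose and 8 fell. Hopx (0.61) and Id2 (0.55) rose, Runx2 fell by 0.62, and Tbx21, the factor T-bet, did not pass (120 to 122 CPM and 111 to 112 CPM).

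**Figure D3:**
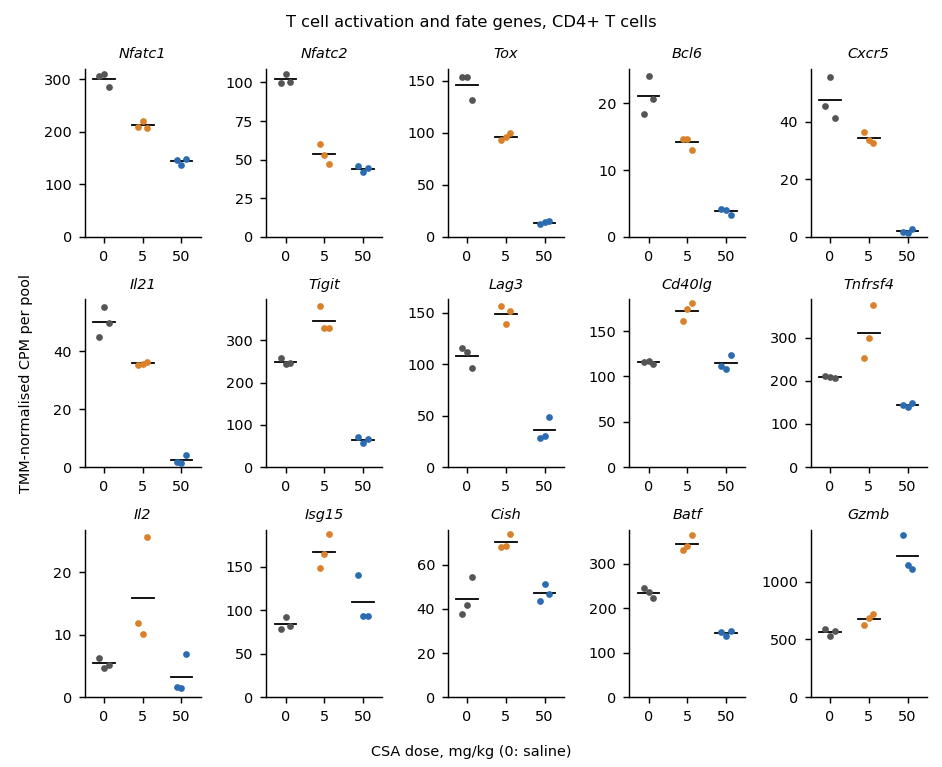
Levels per pool (y axis, TMM-normalised CPM from 0, x axis, CSA dose in mg/kg with 0 for saline) of 15 genes of T cell activation and fate, with 1 point per pool and a bar at the mean of 3 pools. Nfatc1, Nfatc2, Tox, Bcl6, Cxcr5 and Il21 step down over the doses, Tigit, Lag3, Cd40lg, Tnfrsf4, Il2, Isg15, Cish and Batf are highest at 5 mg/kg with mean levels of 346 CPM for Tigit and 15.9 CPM for Il2, and Gzmb is highest at 50 mg/kg. With library size scaling Tigit and Lag3 no longer passed against saline (0.11 each) and Gzmb turned to -0.10.

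Genes of naive, central memory and stem-like T cells rose in 8 of 25 and fell in 9 (median -0.05, or -0.41 with library size scaling). Dapl1 rose from 10.9, 12.8 and 10.2 CPM to 27.1, 17.4 and 26.7 CPM (log2 change 1.07, standard error 0.20), and stood at 93.0 to 135 CPM at 50 mg/kg. Klf2, a factor of quiescence and recirculation, rose by 0.36, which was 0.01 with library size scaling. Tcf7, the factor TCF-1, fell by 0.26 (210, 235 and 184 CPM, then 191, 169 and 166 CPM), with overlapping pools, and its call was lost with DESeq2, outside C0, C4 and C6 and without low dose pool 2 (-0.24), low dose pool 3 (-0.22) or saline pool 2 (-0.17), while in cells of 3000 to 6000 UMIs it rose by 0.32. Bach2, a repressor that holds back effector fate, fell by 0.47 and lost its call without low dose pool 2 (-0.33) or saline pool 1 (-0.40). Lmna, which encodes lamin A/C, was barely present, at 1.89 to 2.59 CPM in the saline pools and 3.86 to 5.68 CPM at 5 mg/kg, against 168 to 205 CPM at 50 mg/kg, and its rise (0.89) lost its call without low dose pool 1 (0.73). Of the lists for homing and cytokine receptors, 9 of 23 and 13 of 29 genes fell and 6 and 5 rose. Cx3cr1, the fractalkine receptor, fell from 9.94 to 12.5 CPM to 4.65 to 6.10 CPM (-1.08), Il18r1 by 0.40 and Tgfbr2, the TGF-beta receptor, by 0.60. Of 10 Ly6 and other surface memory genes 7 rose and 1 fell. Cxcr6, a homing receptor for liver and gut, rose by 0.32 and lay above both groups, but was -0.04 with library size scaling.

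Of 39 interferon-stimulated genes 12 were higher and 9 lower, against 26.1% and 25.6% of all genes tested (median 0.08, or -0.28 with library size scaling). Ifi27l2a rose from 974, 1067 and 942 CPM to 2483, 2648 and 2554 CPM (log2 change 1.36, standard error 0.06) and stood at 1934 to 2418 CPM at 50 mg/kg. Isg15, a ubiquitin-like protein, stood at 78.8, 92.8 and 81.7 CPM in the saline group, 149, 165 and 188 CPM at 5 mg/kg and 93.2 to 141 CPM at 50 mg/kg. Isg20 also lay above both groups (0.70 against saline), a call that held with library size scaling, with DESeq2 and in all 9 fits without a pool, while that of Isg15 was lost with DESeq2. Samd9l, which restricts viruses, fell by 0.68. Of 18 class I antigen presentation genes 10 rose and 3 fell, with Psme1 (0.69) and Psme2 (0.65), the activators of the immunoproteasome, at the top and Nlrc5, the class I transactivator, at -0.42.

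In metabolism, 9 of 22 glycolysis genes rose and 4 fell (median 0.10, or -0.26 with library size scaling). Ldha, lactate dehydrogenase, rose from 892, 908 and 890 CPM to 1293, 1329 and 1368 CPM (log2 change 0.57, standard error 0.03) and Gapdh by 0.54, while the glucose transporter gene Slc2a3 fell from 50.7, 54.0 and 55.6 CPM to 41.3, 31.6 and 43.9 CPM (-0.45) and the hexokinase gene Hk1 by 0.38. Of 16 genes of amino acid supply 6 rose and 2 fell: Psph, of serine synthesis, rose by 0.43 and was 0.07 with library size scaling, and Slc7a5, the leucine transporter, fell by 0.64. Sterol genes fell in 10 of 26 and rose in 4, with Insig1 at -0.62 and Mvd at 0.55. Chaperones of the endoplasmic reticulum were divided (6 of 21 rose and 6 fell), and 5 of 10 heat shock genes rose and 2 fell. Of 23 apoptosis genes 7 rose, Bad by 0.90, and 2 fell, Xiap by 0.48.

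Cell cycle genes did not move as a block. Of 35 S phase genes 8 rose and 5 fell, and of 36 mitosis genes 7 rose and 19 fell (median -0.26). Mki67, the proliferation marker, fell from 572, 650 and 612 CPM to 456, 422 and 326 CPM (log2 change -0.62), whereas Cks2, a small subunit of cyclin-dependent kinases, rose from 118 to 123 CPM to 175 to 184 CPM (0.56). In cells outside the cycling clusters Mki67 was 0.19 and Cks2 0.09, and neither passed. In cells of 3000 to 6000 UMIs Cks2 was -0.03. The share of cells in the 3 cycling clusters was 21.7 ± 2.17% with saline and 23.1 ± 0.400% at 5 mg/kg (SD, n = 3 pools), with overlapping pools, against 33.1 ± 1.99% at 50 mg/kg.

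The makeup of the CD4+ T cells differed. The deposited clusters, with the names their authors gave them, were used as they stand. Clusters C1 (Cd226lo effector, 9.01% with saline and 17.1% at 5 mg/kg), C2 (Tcf7hi precursor-like, 11.1% and 20.5%) and C3 (cycling Cd226lo effector, 4.35% and 10.7%) were larger at 5 mg/kg, and C0 (Cd226hi effector, 25.8% and 14.5%), C4 (follicular helper, 18.1% and 6.42%) and C6 (cycling Cd226hi effector, 10.9% and 6.23%) were smaller. In these 6 clusters the 3 saline and 3 low dose pools did not overlap, and each gave an exact permutation p of 0.1 (two-sided), the smallest that 3 pools against 3 allow. C2 was the only 1 of the 6 in which the low dose lay above both other groups, at 18.6 to 22.4% against 9.56 to 12.5% with saline and 8.40 to 13.1% at 50 mg/kg. The other 7 clusters, C5 (cycling effector #2), C7 (cytotoxic), C8 (Fcer1ghi), C9 (naive), C10 (Isg15hi), C11 (Treg) and C12 (Th17), overlapped between saline and 5 mg/kg. Cluster shares and the levels of genes that define the clusters are not independent measures.

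Depth did not move the same way in every cluster. In C4 and C6, clusters that shrank, the pools at 5 mg/kg were shallower than those of saline: the median over all cells was 2475 UMIs per cell with saline and 1506 at 5 mg/kg in C4, and 5675 and 2536 in C6. In C0, which also shrank, the median over all cells was 2742 UMIs with saline and 2328 at 5 mg/kg, but the pool medians overlapped, at 2702 to 2897 and 1881 to 3455.5. Over all cells of a group, the median mitochondrial share was larger at 5 mg/kg in these 3 clusters, and in the other 10 the median UMI count was higher. The mitochondrial share was also larger in C1, C2, C8 (1.63% and 2.14%) and C11 (1.23% and 1.66%), and smaller in the rest. Cells under 2000 UMIs made up 7.87% and 24.2% of C8, but 50.9% and 8.57% of C9. In C4, 19.2% of saline cells and 83.1% of low dose cells held under 2000 UMIs, and the median mitochondrial share was 2.32% and 5.72%. In C3, by comparison, the medians were 6594.5 and 9634 UMIs. Among cells of at least 2000 UMIs, C4 made up 16.2% with saline and 1.29% at 5 mg/kg, and 9 clusters no longer overlapped. In C0, 10.6% of saline cells and 43.2% of low dose cells held under 2000 UMIs. The part of cell quality in the shares of C0, C4 and C6 was not tested. Outside these 3 clusters, 3591 genes passed between the groups instead of 5467.

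**Figure D4:**
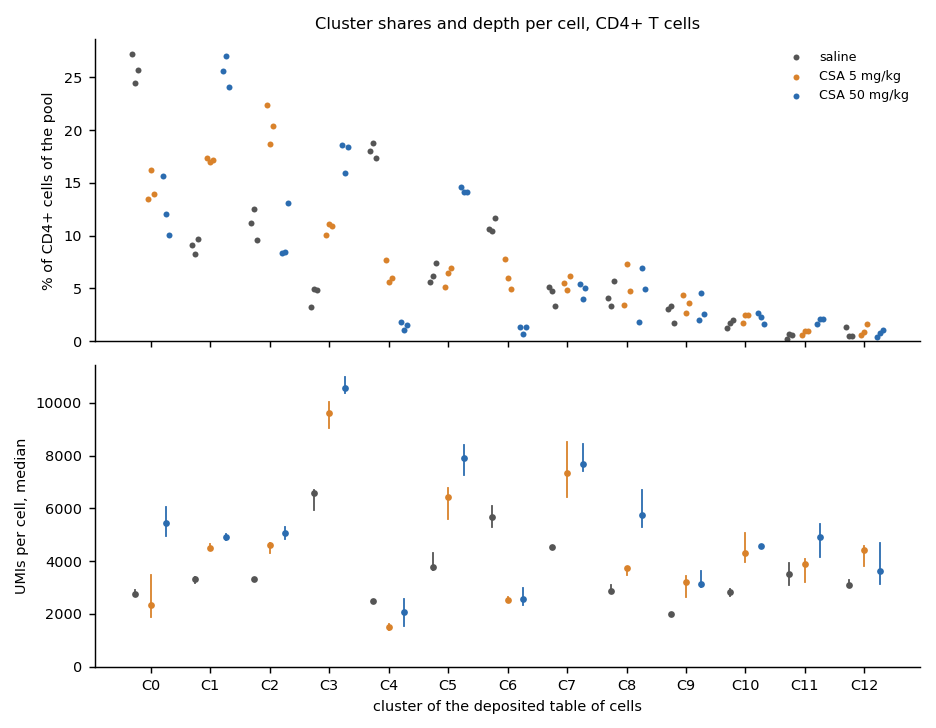
Top, share of each pool's CD4+ T cells in each of 13 deposited clusters (y axis, percent), with 1 point per pool for saline (grey), 5 mg/kg (orange) and 50 mg/kg (blue). Bottom, median UMIs per cell of each cluster and group (points), with lines from the lowest to the highest pool median: at 5 mg/kg cells of C4 (1506) and C6 (2536) lie below those of saline (2475 and 5675), while those of C1, C2, C3, C5 and C7 lie above.

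Within clusters, where the shares of clusters play no part, fewer genes passed, with fewer cells behind each value. In the effector clusters 1245 of 7664 genes tested in C0 (16.2%), 288 of 7035 in C1 (4.09%) and 474 of 7889 in C3 (6.01%) passed. In C2 it was 364 of 6848 (5.32%), in C4 198 of 2558 (7.74%), in C5 1806 of 5958 (30.3%) and in C6 600 of 5074 (11.8%). In C7 it was 1405 of 5698 (24.7%), in C8 321 of 4064 (7.90%), in C9 292 of 1778 (16.4%) and in C10 335 of 1728 (19.4%). C5 and C7 thus held the largest shares of changed genes, and C1 and C2 the smallest, although C1 and C2 had more UMIs per group than C7. C11 and C12 had too few cells for a test. The call above both other groups was made for 17 genes in C0, 60 in C3, 44 in C10 and 0 in C6. Ifitm3 had it in 5 of 9 clusters tested, Ccl1 in 2 of 6, Tigit in 2 of 10, Batf in 1 of 11 and Tnfrsf4 in 1 of 10. Cd40lg, Cish, Csf2 and Isg15 had it in no cluster. Their rise above both groups is thus shown for the pools as a whole. With fewer cells per value, a missing call is no sign of equal levels.

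Ribosomal protein genes rose within nearly all clusters but by different amounts. Of 81 to 83 genes tested, 82 rose in C0, C5 and C7 (median log2 changes 0.80, 0.93 and 0.91), 52 in C1 (0.21), 59 in C2 (0.25), 69 in C3 (0.32), 29 in C4 (0.24) and 73 to 76 in C8, C9 and C10 (0.63 to 0.81). In C6 the list was divided, with 13 higher and 17 lower (median -0.08), but Rps28 and Rps29 rose in all 11 clusters, by 0.82 or more. Complex I and mitochondrial ribosomal proteins had a positive median in 10 of 11 clusters, and complexes II to V in 9. All 3 medians were negative in C6 (-0.03, -0.26 and -0.17), and that of complexes II to V also in C4 (-0.08). Replication-dependent histones had a negative median in 10 of 11 clusters, from -0.27 in C3 to -1.01 in C2, and 0.31 in C4, and Hist1h1a and Hist1h1c fell in 10 of 11, each with C4 as the exception. The mitochondrial genome had its largest medians in C4 (1.35), C6 (1.18) and C0 (0.73), the 3 clusters with a lower median depth over all cells at 5 mg/kg, and at most 0.48 elsewhere.

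The genes of T cell activation were less uniform. The calcineurin and NFAT list had a negative median in 10 of 11 clusters and 0.32 in C6, with Nfatc2 falling in C0 (-0.93), C3 (-0.99), C5 (-1.34) and C7 (-0.92) of 9 clusters in which it was tested. Nfatc1 fell in C0 (-0.38), C5 (-1.01), C7 (-0.72) and C10 (-1.03). It did not pass in the other clusters, with 0.28 in C4 and 0.26 in C6. Tox fell in C5 (-1.31), C7 (-0.86) and C10 (-1.49) and was 0.05 in C4. Tigit rose in C0, C2, C5, C7 and C10 (0.42 to 0.82) and fell in C4 (-0.64). Ccl1 rose in C0 (0.78), C3 (1.82) and C7 (1.14) of 6 clusters tested, and Il2 had enough UMIs for a test in C7 alone, where it rose by 1.26. Bcl6 and Cxcr5 fell in C7 (-1.0 and -0.86) and were 0.13 and 0.04 in C2. In C4, the follicular helper cluster, Cxcr5 was -0.51 and did not pass. Cytotoxic genes rose in 14 of 20 in C5 (median 0.57) and 10 of 20 in C0, and fell in 8 of 12 in C9, the naive cluster (-0.84).

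**Figure D5:**
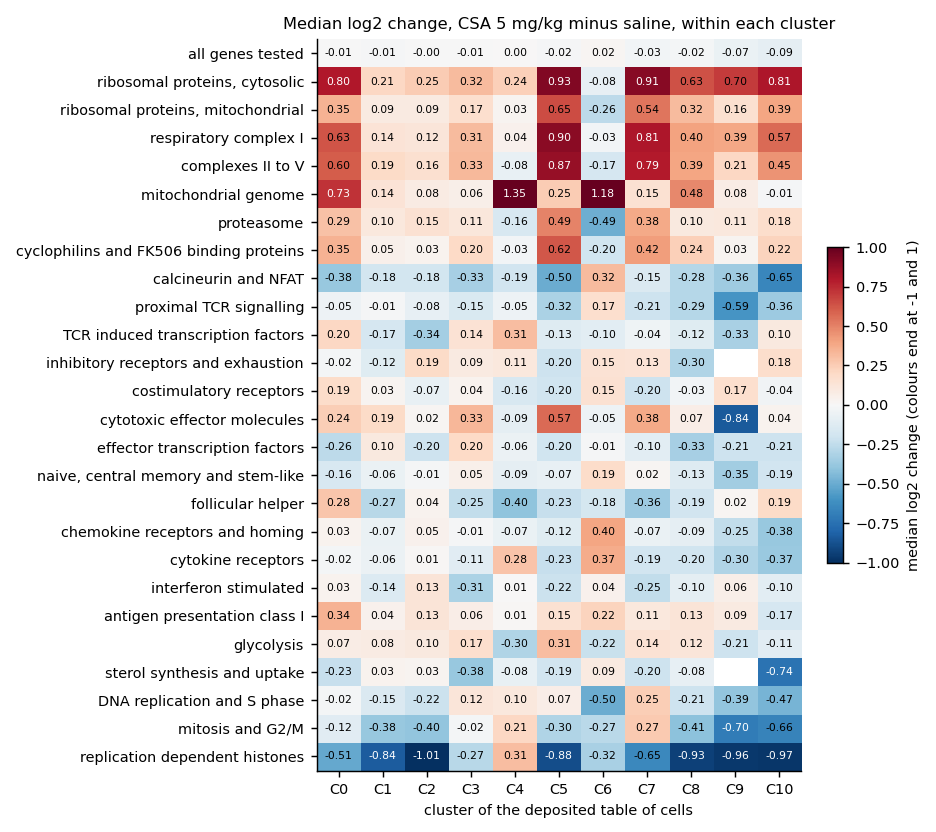
Median log2 change at 5 mg/kg against saline of the genes tested in each list (rows) within each of the 11 deposited clusters tested (columns), with the values printed, colours from blue (lower) to red (higher) that end at -1 and 1, TMM scaling within each cluster, and blank cells where too few genes of a list were tested. Cytosolic ribosomal proteins are positive in every cluster but C6 (-0.08), replication-dependent histones are negative in every cluster but C4 (0.31), and the mitochondrial genome reaches 1.35 in C4.

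The CD8+ T cells of the same pools allow a check of which changes differ between the lineages. Of 11001 genes, 402 (3.65%) changed differently, by the interaction of lineage and treatment in an edgeR quasi-likelihood fit that kept pool as a block, after Benjamini-Hochberg adjustment. Ribosomal protein genes accounted for 64 of them, all with the larger rise in CD8+ T cells (median difference of the list 0.19), and 12 of 13 mitochondrial genome genes differed the other way (median -0.25). The 21 calcineurin and NFAT genes had a median log2 change of -0.31 in CD8+ and -0.19 in CD4+ T cells. Of 20 cytotoxic genes 9 differed, 8 of them with the larger value in CD8+ T cells, and of 21 chaperone and unfolded protein response genes 11 differed, 10 with the larger value in CD4+ T cells. Lag3 differed, with the larger value in CD4+ T cells (difference of -0.31, standard error 0.08), and so did Itga4, which fell by more in CD8+ T cells (-0.44). In a fit that left out the cycling CD4+ clusters and the CD8+ clusters with the lowest numbers, 77 of 10311 genes differed. The paper names CD8+ clusters C2, C3 and C4 as cycling, and the deposited numbers were not matched to these names. The 77 genes therefore cannot be read as a count without cycling cells. That the CD8+ clusters left out are the cycling ones is not shown here, and fewer cells entered this fit.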

How the data were processed

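UMI counts per gene and cell, hashtag and antibody counts, the fraction of mitochondrial UMIs and the cluster and TEa labels of each cell were deposited by the authors. Per the submitters' processing notes the reads were processed with Cell Ranger and Seurat 3.0.0 on mm10, and the version of Cell Ranger and the gene annotation are not given in the sources used here. The deposited counts of 18029 genes were added up over all cells of a pool, and the 9 pools of CD4+ T cells were fitted together with edgeR 4.0.16 (quasi-likelihood test, TMM scaling, its default filter on low counts) in R 4.3.3, with Benjamini-Hochberg adjustment over all genes tested and a threshold of 0.05. Genes above or below both groups had to pass in both contrasts, with the larger p adjusted. No doublet caller was run, and the doublet treatment before deposit is not given in the sources used here. As a check on droplets holding cells of 2 pools, the fit was repeated without cells whose second hashtag count was at least 0.50 of the first (116 cells with saline and 135 at 5 mg/kg), and 2721 genes were higher at 5 mg/kg. Within clusters a pool needed 10 cells and a group 2 pools. Cluster shares were compared by exact permutation tests over pools. CD8+ and CD4+ T cells were compared by the interaction of lineage and treatment, with each pool as a block.

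The named genes were the 12 largest rises and 12 largest falls of at least 50 CPM without overlap that held with library size scaling. Added to these were the 10 genes furthest above and the 10 furthest below both other groups, of at least 20 CPM and without overlap with either. Up to 2 rises and 2 falls per gene list and anchor genes of the 43 lists completed them. Some genes that this rule names are not reported here. Gene members and lists were chosen with earlier results of these data known. The mouse gene H13, which is no histone, was taken out of the histone list after the values were seen. Alternatives were DESeq2 1.42.0, library size scaling, no filter on low counts, the 6 pools alone, the hashtag number as a block, leaving out each pool, and subsets of cells, and transcript lengths were added after the data were seen. In a test on data simulated for CD4+ T cells at 5 mg/kg against saline, with 10435 genes and a log2 change of 1, up or down, given to 200, the fit found 99.5% and made 12 false calls. The changed genes were not rare, rises and falls were equal in number, and no capture effect was simulated. Its error rate therefore does not carry over to the data, where 51.7% of genes passed. Tables were handled in Python 3.11.15 with pandas 2.3.3 and drawn with matplotlib 3.10.9.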

Additional observations from a re-analysis of the deposited data

Results flagged for a closer look

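Of 154 genes named or described here, 35 changed by different amounts in CD8+ and CD4+ T cells of the same pools, by the interaction term of the edgeR quasi-likelihood fit (Benjamini-Hochberg adjusted p from 8.95e-09 to 0.0487). Values below are the log2 change at 5 mg/kg in CD8+ T cells minus that in CD4+ T cells.

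In 9 genes the value was lower in CD8+ T cells. The glucose transporter gene Slc2a3 differed by -0.52, the integrin gene Itga4 by -0.44, the chaperone gene Canx by -0.40, mt-Nd3 by -0.36, Fkbp5 by -0.34, Lag3 by -0.31, Huwe1 by -0.28, mt-Co3 by -0.24 and Gzmb by -0.21.

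In 26 genes it was higher in CD8+ T cells. Among genes of the ribosome the differences were 0.18 for Rps29 and Rps27, 0.20 for Rpl37 and Rpl38, 0.21 for Rps21, 0.22 for Rps28, 0.24 for Rpl39, 0.27 for Rpl36 and 0.35 for Rpl41, and Gm42418 differed by 0.22. Genes of the respiratory chain differed by 0.24 (Ndufa1), 0.29 (Atp5e) and 0.30 (Atp5k). Small cytoskeletal and surface proteins differed by 0.19 (Tmsb10), 0.32 (Tmsb4x) and 0.23 (Cd52). Effector genes differed by 0.26 (Id2), 0.29 (S100a6), 0.34 (Hopx) and 0.52 (Gzma). The others were Ppia at 0.15, Gapdh at 0.26, Sec61b at 0.34, and the histone genes Hist1h2ae at 0.30 and Hist1h2ap at 0.43. Cd8b1, a CD8 T cell marker that rose in CD8+ T cells (0.57) and fell in CD4+ T cells (-0.32), differed by 0.86.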

How the results depend on the processing

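Outside C0, C4 and C6, a choice made after seeing the data, 3591 genes passed and 1773 were higher. With library size scaling 926 were higher and 5718 lower. Genes above both other groups numbered 239 in cells of at least 2000 UMIs and at most 5% mitochondrial UMIs, also added later, and 92 to 158 without single pools. Genes below both numbered 31 with DESeq2, 215 with library size scaling, 100 without a filter on low counts, 82 in cells of at least 2000 UMIs, 21 in cells of 3000 to 6000 UMIs, 111 in cells of at least 2000 UMIs and at most 5% mitochondrial UMIs, and 26 to 60 without single pools. With DESeq2, 4472 calls were made within clusters instead of 7328, with 736 in C0, 181 in C1, 183 in C2, 1199 in C5, 768 in C7, 194 in C8, 139 in C9 and 173 in C10. With the cycling CD4+ clusters and the lowest-numbered CD8+ clusters left out, 77 genes differed between CD8+ and CD4+ T cells. Clusters without overlap numbered 9 in cells of at least 2000 UMIs and 6 to 8 without single pools. The causes were not tested.

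Log2 changes of named genes turned as follows. With library size scaling they were -0.31 for Rcan1, -0.10 for Egr2, -0.072 for Nfkbia, -0.070 for Zap70, -0.035 for Cxcr6, -0.014 for Gm42418, -0.29 for Pdcd1, -0.10 for Gzmb, -0.15 for Gzma and -0.015 for Ccnb2. In cells of 3000 to 6000 UMIs they were -0.10 for Hist1h2ap and Gzmc, -0.053 for Hist1h2ae, -0.26 for Rcan1, -0.071 for Pdcd1, -0.038 for Gzmb, -0.061 for Gzma, 0.32 for Tcf7, 0.17 for Bach2, -0.029 for Cks2, -0.47 for Ccnb2 and -0.15 for Dut. Outside the cycling clusters they were -0.13 for Hist1h2ap, -0.17 for Hist1h2ae, 0.19 for Mki67 and -0.41 for Ccnb2. Rcan1 was -0.057 in cells of at least 2000 UMIs, -0.010 without cells of a second strong hashtag and -0.030 with the mitochondrial limit, and Egr2 was -0.21 outside C0, C4 and C6. Without single pools Rcan1 ranged from -0.28 to 0.37, Pdcd1 from -0.022 to 0.18 and Ifng from -0.50 to 0.092.

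The hashtag number is a label of a pool and no sign of a shared mouse, day or litter. With the number as a replicate block 2744 genes were higher and 2669 lower, 143 lay above both groups and 47 below both, and of the named genes Ndufs1 (-0.17) lost its call. Few UMIs limit Il2, Il17a, Rcan1, Lmna and Eomes, whose values rest on few molecules per pool.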
